A study of Mus musculus with 6 samples.

Results

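The T cell antigen receptor works only as part of a larger assembly. Its variable chains recognize peptide on MHC molecules but have almost no cytoplasmic tail, and the signal is passed on by the CD3 chains, encoded by Cd3e, Cd3d, Cd3g and Cd247 (CD3 zeta), whose tails carry the tyrosine motifs that recruit the kinase ZAP-70. The coreceptors CD4 and CD8 bind MHC class II and class I, respectively, and bring the kinase LCK to the receptor, and CD5, CD6 and CD2 are surface molecules of T cells that tune adhesion and signaling. In the spleen these genes are used mainly by T cells of the white pulp, but CD4 and the CD8 alpha chain are also found on dendritic cells, CD5 on B-1a cells, CD2 on B and natural killer (NK) cells, and CD3 zeta in NK cells.

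The 10 genes Cd3e, Cd3d, Cd3g, Cd247, Cd4, Cd8a, Cd8b1, Cd5, Cd6 and Cd2 were chosen by name from the 47729 genes of the count table, and all 10 passed the filter on low counts. Spleens of 3 female NOD.B10 mice (NOD.B10Sn-H2b/J, a model of primary Sjögren's syndrome, pSS) were compared with those of 3 female BL/10 mice (C57BL10/SnJ), the healthy control strain. Both strains carry the H2b haplotype of the MHC, and the labels name no treatment and no transgene. Libraries were assigned to a strain by their description and column name. Since the labels' titles and strain field give the opposite strain for each of the 6, all directions below would turn around under those. The labels give an age of 26 weeks for all NOD.B10 libraries and BL/10 replicate 1, and of 36 weeks for BL/10 replicates 2 and 3, so that by the labels age and strain are partly confounded. The study describes its controls as age-matched, and the difference could not be settled.

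Total counts were between 15662712 and 18298451 per library, and a count of 3, the floor of detection used here, was at most 0.192 CPM of these totals. Gene levels are given in CPM, that is, read counts divided by library totals that TMM factors had adjusted for RNA composition. Each of the 10 genes had at least 248 counts in every library. T and B cell genes and the red pulp macrophage genes Spic and Vcam1 were read in all libraries, but pancreas acinar genes were read too. Their summed level was 13253 CPM in BL/10 replicate 1, 2064 and 110.3 CPM in replicates 2 and 3, and at most 31.1 CPM in NOD.B10. For the 10 genes, the value without BL/10 replicate 1 is given where leaving it out changed a call. These are whole spleens, and a larger number of T cells cannot be told apart from more RNA of a gene per T cell.

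Sequence before the start of the gene was found for 6 of the 10 genes in the RefSeq promoter table (build GRCm38.p6), and not for Cd4, Cd8b1, Cd6 and Cd2. The 250 bases before the start are shown for the 3 clustered CD3 genes, which rose together in NOD.B10, and for Cd8a, which did not pass the test. Capitals mark the core of the binding motif of ETS family factors, GGAA on either strand (TTCC).

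Cd3e (chr9:45009612-45009861, minus strand): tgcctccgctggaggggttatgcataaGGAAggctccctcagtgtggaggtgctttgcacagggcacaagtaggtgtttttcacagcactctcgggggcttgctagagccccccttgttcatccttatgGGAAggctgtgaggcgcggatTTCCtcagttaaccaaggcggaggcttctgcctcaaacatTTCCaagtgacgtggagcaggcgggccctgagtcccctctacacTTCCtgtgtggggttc
Cd3d (chr9:44981536-44981785, plus strand): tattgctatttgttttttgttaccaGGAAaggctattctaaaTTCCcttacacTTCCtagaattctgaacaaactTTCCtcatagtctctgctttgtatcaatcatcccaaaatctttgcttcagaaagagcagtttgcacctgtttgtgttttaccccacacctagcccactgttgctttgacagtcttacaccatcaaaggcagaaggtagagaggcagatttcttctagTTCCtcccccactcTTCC
Cd3g (chr9:44980432-44980681, minus strand): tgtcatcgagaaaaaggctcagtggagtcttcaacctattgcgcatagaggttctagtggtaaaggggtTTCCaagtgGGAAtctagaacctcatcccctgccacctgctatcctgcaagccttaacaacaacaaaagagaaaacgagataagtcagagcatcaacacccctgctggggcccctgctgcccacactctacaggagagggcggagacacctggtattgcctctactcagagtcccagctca
Cd8a (chr6:71373177-71373426, plus strand): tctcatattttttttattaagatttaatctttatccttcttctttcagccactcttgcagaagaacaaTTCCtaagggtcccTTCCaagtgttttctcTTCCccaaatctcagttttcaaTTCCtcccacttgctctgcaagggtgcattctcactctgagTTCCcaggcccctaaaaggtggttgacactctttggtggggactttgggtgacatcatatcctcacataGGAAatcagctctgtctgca

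The core was matched 5 times for Cd3e, 6 times for Cd3d, 2 times for Cd3g and 6 times for Cd8a, and 1 and 4 times for Cd247 and Cd5, whose sequences are not shown. It is a short motif, present in 93.4% of 32851 promoter windows of the same length with a median of 3 matches. None of the 6 windows held TATAAA (12.4% of all windows, TTTATA included) or the core TGTGGT bound by RUNX factors (14.0%, ACCACA included). The GATA motif AGATAA or its reverse TTATCT (9.99% of all windows) was matched 1 time, in Cd3g, and CTTTGA or TCAAAG, a core of TCF and LEF factors (13.8%), 2 times, in Cd3d. The E-box CANNTG, which reads the same on both strands and was present in 66.2% of the windows, was matched between 1 and 3 times in each of the 6. Overlaps between different motifs were not removed. These matches describe the letters only.

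The strains were compared by edgeR's quasi-likelihood test over the whole table, with p-values adjusted by Benjamini-Hochberg for the 15330 genes tested. An adjusted p under 0.05 was found for 7 of the 10 genes, all higher in NOD.B10 spleens, beside 9.11% of all tested genes called higher and 17.3% called in either direction. The 7 genes were the 4 CD3 genes, Cd4, Cd5 and Cd6. Cd8a, Cd8b1 and Cd2 did not pass. No gene of the 10 was lower at an unadjusted p under 0.05 in edgeR, by DESeq2 or by limma-voom (0 in each). For these 7 genes the 3 NOD.B10 libraries also lay above the 3 BL/10 libraries, which was seen for 20.5% of the genes tested. The 10 genes had a median log2 fold change of 1.22, and that of all tested genes was within 0.1 of 0.

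**Figure D1:**
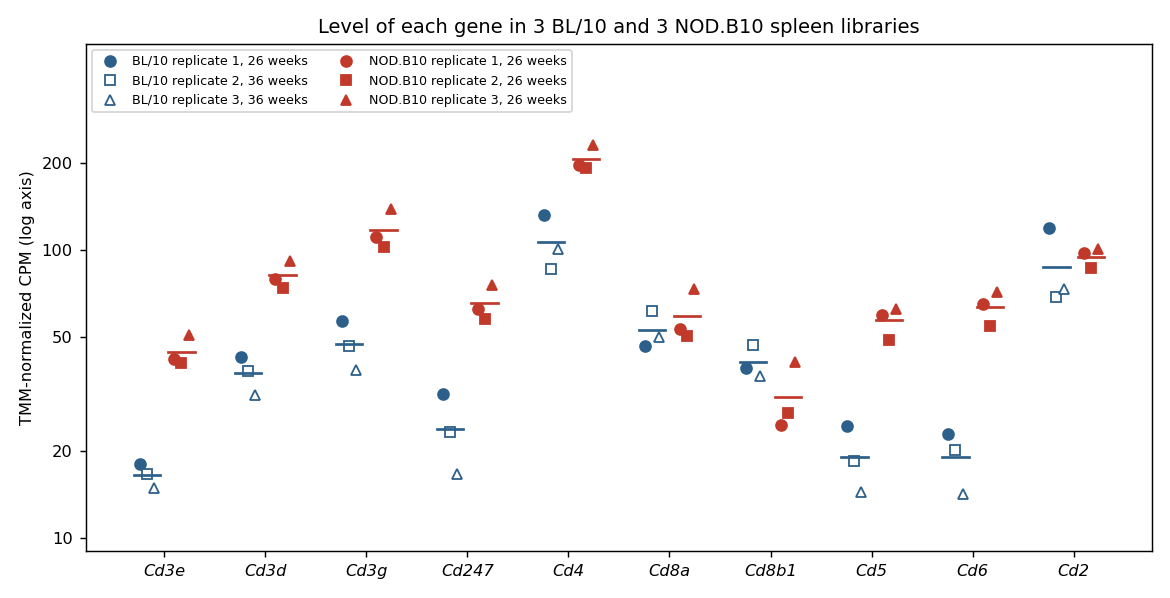
TMM-normalized CPM on a log axis for each of the 10 genes in every library, with bars at the strain means, replicates 1, 2 and 3 as circles, squares and triangles, and open symbols for the 36-week libraries. The NOD.B10 libraries lie above the BL/10 libraries for the CD3 genes, Cd4, Cd5 and Cd6, and the strains overlap for Cd8a, Cd8b1 and Cd2.

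The CD3 genes were compared first. Cd3e, Cd3d and Cd3g lie together on chromosome 9 of GRCm38, from 44969572 to 45009590. Cd3d and Cd3g point away from each other with 1361 bases between them, and 11690 bases separate Cd3d from Cd3e. Cd3e (ENSMUSG00000032093, chromosome 9 from 44998743 to 45009590, minus strand), whose chain pairs with both CD3 delta and CD3 gamma, was present at 41.7, 40.4 and 50.7 CPM in NOD.B10 replicates 1, 2 and 3 and at 18.1, 16.6 and 14.9 CPM in BL/10. The lowest NOD.B10 library was more than double the highest BL/10 library. The means were 44.3 ± 5.6 CPM (SD, n = 3) and 16.5 ± 1.6 CPM (SD, n = 3), a log2 fold difference of 1.42 (SE 0.12, edgeR adjusted p = 0.000414) or 2.68-fold, with the smallest standard error among the 10 genes.

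Cd3d (ENSMUSG00000032094, chromosome 9 from 44981793 to 44987052, plus strand) had 79.5, 73.9 and 91.8 CPM in NOD.B10 and 42.5, 38.1 and 31.3 CPM in BL/10. The strains did not overlap, and the log2 fold difference was 1.13 (SE 0.14, edgeR adjusted p = 0.00168). Cd3g (ENSMUSG00000002033, chromosome 9 from 44969572 to 44980431, minus strand) had 111, 102 and 139 CPM in NOD.B10 and 56.8, 46.3 and 38.4 CPM in BL/10. Its log2 fold difference was 1.32 (SE 0.17, edgeR adjusted p = 0.00231), again with no overlap.

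Cd247 (ENSMUSG00000005763) lies apart from the others, on chromosome 1 from 165788681 to 165877277 on the plus strand, and encodes the zeta chain, the CD3 chain with the most tyrosine motifs. It had 62.4, 57.5 and 75.9 CPM in NOD.B10 and 31.6, 23.3 and 16.7 CPM in BL/10. The log2 fold difference was 1.45 (SE 0.22, edgeR adjusted p = 0.00477), and the widest relative spread of the CD3 genes was seen in its BL/10 libraries. Of its 5329 exon bases, 3213 (60.3%) overlap exons of Pou2f1 on the opposite strand or of Gm16565. Reads there overlap more than one gene and are not counted under the counting settings in the file header, so the counts of Cd247 come from the other 2116 bases. Pou2f1 itself, the octamer factor gene, had a log2 fold difference of 0.33 (SE 0.11, edgeR adjusted p = 0.0764). The other 9 genes shared no exon base with another gene.

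The CD3 genes were also compared with each other within a library. The ratio of Cd3g to Cd3e in counts per kilobase of exon was 3.57, 3.39 and 3.69 in NOD.B10 and 4.21, 3.74 and 3.46 in BL/10, and that of Cd247 to Cd3e, over all exon bases of both, was 0.403, 0.383 and 0.403 and 0.471, 0.378 and 0.302. The strains overlapped for both (exact two-sided permutation p = 0.40 and 0.70). The ratio of Cd3d to Cd3e was slightly lower in NOD.B10, with 2.07, 1.99 and 1.97 against 2.55, 2.49 and 2.28 in BL/10, and the strains did not overlap (exact permutation p = 0.10). With 3 libraries against 3 this test cannot give a p below 0.1, so that no ratio can pass the threshold, and adjusted over the 11 ratios tested the smallest p was 0.138. The BL/10 libraries differed more from each other than the NOD.B10 libraries for these 3 ratios.

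**Figure D2:**
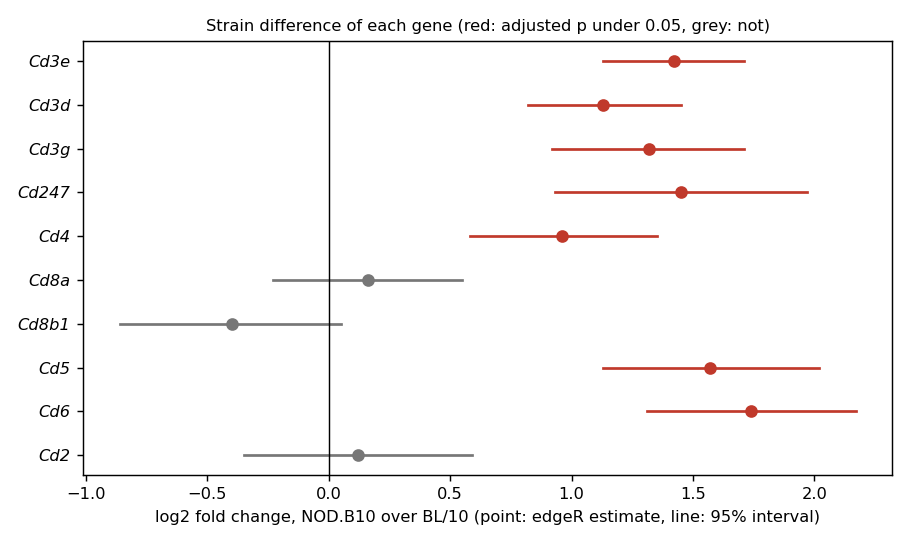
Log2 fold change of each gene in NOD.B10 over BL/10 spleens from edgeR, with points for the estimates and lines for 95% intervals, red where the adjusted p was under 0.05. The intervals of the CD3 genes, Cd4, Cd5 and Cd6 lie above 0, from 0.58 for the lower end of Cd4, and those of Cd8a, Cd8b1 and Cd2 include 0.

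The coreceptor genes did not move together. Cd4 (ENSMUSG00000023274, chromosome 6 from 124864692 to 124888221, minus strand), the coreceptor of helper and regulatory T cells, had 198, 192 and 232 CPM in NOD.B10 and 132, 86.1 and 101 CPM in BL/10. The strains did not overlap. The log2 fold difference was 0.96 (SE 0.17, edgeR adjusted p = 0.00805), the smallest among the 7 genes called. BL/10 replicate 1 was the highest BL/10 library, and with the 26-week libraries only, in which it stands alone for BL/10, the log2 fold change was 0.65 (standard error 0.15) and the adjusted p in edgeR was 0.0605.

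The genes of both CD8 chains lie near each other on chromosome 6, with 35932 bases between them, in which Gm44175 and Gm44174 lie. Cd8a (ENSMUSG00000053977, from 71373427 to 71379173, plus strand) encodes the alpha chain, which binds LCK and can form a dimer with itself or with the beta chain. It had 53.2, 50.1 and 73.1 CPM in NOD.B10 and 46.3, 61.4 and 49.9 CPM in BL/10. The strains overlapped, with a log2 fold change of 0.16 (95% interval -0.23 to 0.55, adjusted p = 0.528 from edgeR). Cd8b1 (ENSMUSG00000053044, from 71322788 to 71337494, plus strand), the gene of the beta chain, had 24.6, 27.1 and 40.8 CPM in NOD.B10 and 39.0, 46.9 and 36.5 CPM in BL/10. NOD.B10 replicate 3 lay within the BL/10 range and the other NOD.B10 libraries below it. Its log2 fold change was -0.40 (95% interval -0.86 to 0.05, adjusted p = 0.19 from edgeR), and without NOD.B10 replicate 3 it was -0.65 with an adjusted p of 0.0394 in edgeR. The upper ends of both intervals lie under the log2 fold changes of all 4 CD3 genes.

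The balance of CD4 against CD8 transcripts was then calculated within each library, where it does not depend on library size. Other cells that carry a gene of the ratio still contribute to it. In counts per kilobase, the Cd4 to Cd8a ratio was 3.35, 3.46 and 2.86 in NOD.B10 and 2.58, 1.26 and 1.82 in BL/10. Every NOD.B10 library lay above every BL/10 library, and the geometric means of 3.21 and 1.81 differed 1.77-fold (log2 difference 0.83, standard error 0.31, exact permutation p = 0.10). With each replicate left out, the log2 difference was between 0.57, without BL/10 replicate 2, and 1.08, without BL/10 replicate 1. That replicate, the only 26-week BL/10 library by the labels, was the BL/10 library nearest to NOD.B10. Its ratio was 2.58, beside the NOD.B10 geometric mean of 3.21, so the difference was smaller against this single library, which gives no spread for its age. The part of age in this was not tested. The Cd4 to Cd8b1 ratio was 2.95, 2.60 and 2.09 in NOD.B10 and 1.25, 0.675 and 1.02 in BL/10, a 2.66-fold difference (log2 difference 1.41, standard error 0.30, exact permutation p = 0.10). Here too the 26-week BL/10 library, at 1.25, was nearest to NOD.B10.

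Set against the sum of the 4 CD3 genes, Cd8a was lower in NOD.B10, with ratios of 0.0716, 0.0723 and 0.0807 against 0.123, 0.192 and 0.188 in BL/10. In this CD3 sum, here and below, Cd247 was divided by all its 5329 exon bases and not by the 2116 unshared ones, which makes its term smaller. There was no overlap, and the ratio was 2.20-fold higher in BL/10 (exact permutation p = 0.10). For Cd4 the same ratio was 0.240, 0.25 and 0.231 in NOD.B10 and 0.317, 0.243 and 0.343 in BL/10, with overlap (exact permutation p = 0.20). The Cd8a ratio thus parted the strains and the Cd4 ratio did not.

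The chains of CD8 also differed from each other. The ratio of Cd8a to Cd8b1 in counts per kilobase was 0.881, 0.752 and 0.731 in NOD.B10 and 0.484, 0.534 and 0.558 in BL/10, without overlap and 1.5-fold higher in NOD.B10 (log2 difference 0.58, standard error 0.10, exact permutation p = 0.10). Type 1 conventional dendritic cells (cDC1) carry CD8 alpha without CD8 beta. Of their 7 marker genes, 1 (Itgae, an integrin also found on CD8 T cells) was called higher and none lower in NOD.B10 by edgeR. At an unadjusted p under 0.05 in edgeR 3 were higher and 1 lower, and DESeq2 called 1 higher and 0 lower. The summed level of the list was 767, 657 and 758 CPM in NOD.B10 and 668, 580 and 590 CPM in BL/10, with overlap between the strains. Most of it came from Wdfy4 alone (mean 544 CPM in NOD.B10 and 455 CPM in BL/10). The defining markers were read in all libraries, and Xcr1 and Clec9a had log2 fold changes of 0.46 and -0.31 (adjusted p = 0.0729 and 0.0797 from edgeR). Their part in the Cd8a to Cd8b1 ratio was not tested.

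**Figure D3:**
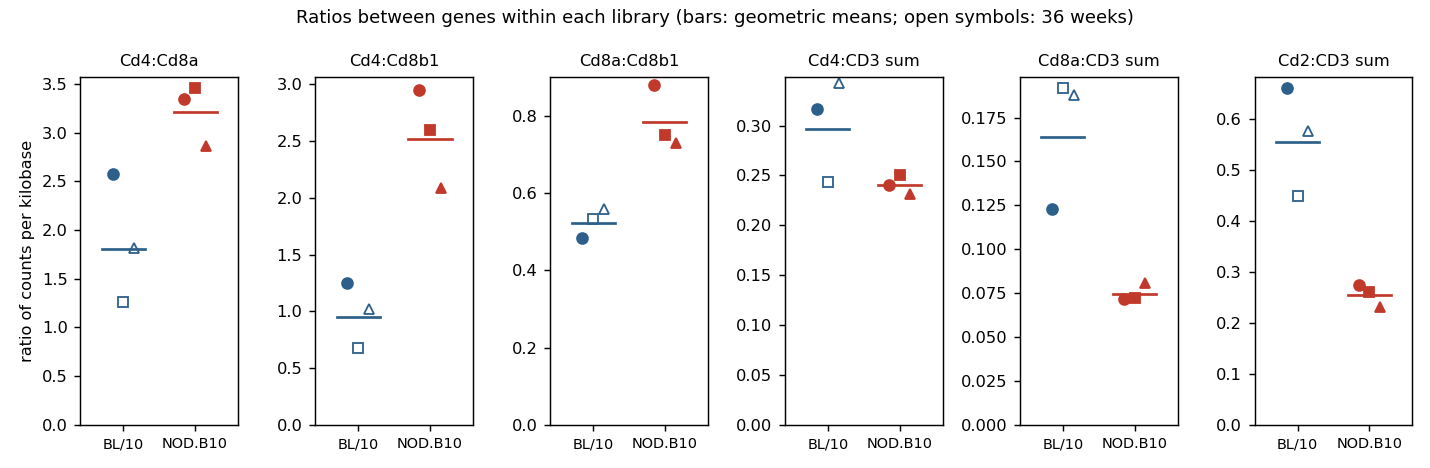
Ratios of counts per kilobase between genes in each library, on axes from 0, with bars at the geometric means, symbols for replicates 1 (circle), 2 (square) and 3 (triangle), and open symbols for the 36-week libraries. Cd4:Cd8a, Cd4:Cd8b1 and Cd8a:Cd8b1 are higher and Cd8a:CD3 sum and Cd2:CD3 sum lower in all 3 NOD.B10 libraries, and Cd4:CD3 sum overlaps between the strains.

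Cd5 and Cd6, scavenger receptor cysteine-rich proteins that bind the T cell surface signaling machinery and are known mainly as brakes on it, were both called higher. Their log2 fold changes were the largest of the 10 genes in the comparison of all libraries, but that of Cd5 lay within 1 SE of that of Cd247, and in the 26-week libraries Cd3e (1.29) was above Cd5 (1.22). They lie near each other on chromosome 19, with 50366 bases between them. Cd6 (ENSMUSG00000024670, from 10789341 to 10830058, minus strand) had 65.0, 54.5 and 71.2 CPM in NOD.B10 and 22.9, 20.1 and 14.1 CPM in BL/10. The log2 fold difference was 1.74 (SE 0.18, edgeR adjusted p = 0.00095) or 3.34-fold. Cd5 (ENSMUSG00000024669, from 10718143 to 10738974, minus strand) had 59.5, 48.7 and 62.5 CPM in NOD.B10 and 24.4, 18.5 and 14.4 CPM in BL/10, a log2 fold difference of 1.57 (SE 0.19, edgeR adjusted p = 0.00185). For both genes all NOD.B10 libraries lay far above all BL/10 libraries.

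Relative to the CD3 sum, both were still higher in NOD.B10. The Cd6 ratio was 0.0934, 0.0842 and 0.0840 against 0.0648, 0.0671 and 0.0569 in BL/10, and the Cd5 ratio was 0.141, 0.124 and 0.121 against 0.114, 0.102 and 0.0952. Neither overlapped, with differences of 1.39-fold and 1.24-fold (exact permutation p = 0.10 for each). CD5 is also carried by B-1a cells. No B cell marker gene of 8 was called in edgeR, and the median over them was 0.28. At an unadjusted p under 0.05, and by DESeq2, the count was also 0. Without BL/10 replicate 1, edgeR called 6 of the 8 higher in NOD.B10, so this count rests on that library, and the part of B cells in Cd5 was not tested.

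Cd2 (ENSMUSG00000027863, chromosome 3 from 101275899 to 101287939, minus strand), the adhesion receptor for CD48, did not pass the test, unlike Cd5 and Cd6. It had 97.4, 86.5 and 100.4 CPM in NOD.B10 and 119, 68.9 and 73.2 CPM in BL/10. The highest library was BL/10 replicate 1, and the strains overlapped (log2 fold change 0.12, 95% interval -0.35 to 0.59, adjusted p = 0.715 from edgeR). Without BL/10 replicate 1 the log2 fold change was 0.41 and the adjusted p in edgeR was 0.0209. Against the CD3 sum, the ratio was 0.274, 0.261 and 0.232 in NOD.B10 and 0.661, 0.449 and 0.576 in BL/10, without overlap and 2.18-fold higher in BL/10 (exact permutation p = 0.10). The summed level of the 8 B cell markers was 4669 CPM in BL/10 replicate 1 and 2509 and 2686 CPM in replicates 2 and 3, against 3946, 3341 and 4276 CPM in NOD.B10. It was thus highest in the library with the most Cd2, and its part in the level of Cd2 was not tested.

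Levels were next compared between genes, per kilobase of exon (for Cd247, of its unshared bases). In NOD.B10 the order from the highest was Cd3g (109.8 ± 18.2 CPM per kilobase, SD, n = 3), Cd3d (61.8 ± 6.88), Cd2 (54.4 ± 4.21), Cd4 (51.4 ± 5.31), Cd247 (30.8 ± 4.5), Cd3e (30.8 ± 3.90), Cd5 (27.5 ± 3.50), Cd8b1 (20.8 ± 5.86), Cd6 (18.7 ± 2.48) and Cd8a (16.2 ± 3.43). Only Cd3g against Cd3d and Cd4 against Cd247 did not overlap among neighbours in this order. In BL/10 the order was Cd2 (50.1 ± 16.1 CPM per kilobase, SD, n = 3), Cd3g (44.1 ± 8.60), Cd3d (28.2 ± 4.27), Cd8b1 (27.5 ± 3.68), Cd4 (26.4 ± 5.85), Cd8a (14.4 ± 2.18), Cd3e (11.5 ± 1.11), Cd247 (11.3 ± 3.53), Cd5 (9.23 ± 2.43) and Cd6 (5.59 ± 1.31). Here Cd3g against Cd3d, Cd4 against Cd8a, Cd8a against Cd3e, and Cd5 against Cd6 did not overlap. Cd8a was the lowest of the 10 in NOD.B10 and stood above Cd3e, Cd247, Cd5 and Cd6 in BL/10. Reads map unevenly along genes, so an order between genes of close level says little.

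The genes also varied together within a strain. All 10 were highest in replicate 3 among the NOD.B10 libraries, by 0.09 to 0.44 on the log2 scale above the strain mean, and 9 of the 10 were lowest in replicate 2. In BL/10, 8 of the 10 were highest in replicate 1, and the other two, Cd8a and Cd8b1, were highest in replicate 2. BL/10 replicate 1 lay 0.13 to 0.50 above its strain mean for those 8 genes and 0.17 and 0.06 below it for Cd8a and Cd8b1. Replicate 1 is the 26-week BL/10 library and the one with the most pancreas reads, and the part of either in these differences was not tested. Over the 6 libraries, Pearson's r between each gene and the mean of the other 9 was 0.95 or more for Cd4, Cd5, Cd6 and the CD3 genes, 0.48 for Cd2, 0.42 for Cd8a and -0.50 for Cd8b1. These are descriptions over 6 points that share their libraries and the strain difference.

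Among 10579 other genes with a mean above 3 on the log2 CPM scale, those closest in pattern to the mean of the 10 genes over the 6 libraries were Usb1, Tcf20, Lck, Trac, Prrc2c, Zap70, Tcf7 and Trbc2, with r between 0.9947 and 0.9974. They were picked as the highest of many values over 6 points that share the strain difference, so r this high follows partly from the choice. Lck encodes the kinase carried by CD4 and CD8, Zap70 the kinase that docks on the CD3 chains, Trac and Trbc2 constant segments of the T cell receptor, and Tcf7 the T cell factor TCF-1. Their size of change differed, with log2 fold changes of 1.26 for Lck and 1.66 for Tcf7 but 0.47 for Usb1, 0.34 for Tcf20 and 0.34 for Prrc2c, of which the last did not pass (adjusted p = 0.0544 from edgeR).

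The partners of the 10 genes were described from lists written from general knowledge, but with earlier results of these data known. Counts within the lists are therefore descriptions. Over all tested genes, 9.11% were called higher and 8.22% lower. Among the 7 constant segments of the receptor itself, Trac, Trbc1 and Trbc2 of the alpha beta receptor were called higher in NOD.B10 (log2 fold changes 1.25, 0.98 and 1.13) and the 4 gamma delta segments did not pass. Trdc, the delta segment, had 9.51, 9.64 and 11.4 CPM in NOD.B10 and 0.272, 6.04 and 3.69 CPM in BL/10, without overlap (log2 fold difference 1.64, SE 0.66, edgeR adjusted p = 0.124). It was called without BL/10 replicate 1 (1.06) and in the 26-week libraries, where that replicate with its 5 counts stands alone (5.19). Of 26 genes of proximal receptor signaling, 15 were called higher and none lower by edgeR, and their median log2 fold change was 0.60. At an unadjusted p under 0.05 in edgeR 19 were higher and 0 lower, and DESeq2 called 17 higher and 0 lower. Those that passed included Lck (171 ± 24.6 CPM in NOD.B10 and 71.6 ± 12.4 CPM in BL/10, SD, n = 3), Zap70 (log2 fold change 1.00), the adaptor Lat (1.19), the costimulatory receptor Cd28 (1.32) and Trat1, an adaptor of the receptor complex (2.12). Lcp2, the SLP-76 adaptor used in many blood cells, had a log2 fold change of -0.13 (adjusted p = 0.353 from edgeR), and Ptprc, the CD45 phosphatase of all leukocytes, 0.52 (adjusted p = 0.09 from edgeR).

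Of 14 transcription factors of the T lineage, 8 were called higher and 2 lower. Bcl11b and Lef1, needed for T cell identity and development, rose with Tcf7, by log2 fold changes of 1.77 and 1.82. The factors that decide between the CD4 and CD8 fates were Zbtb7b (ThPOK), which favors CD4 and had a log2 fold change of 0.25 (adjusted p = 0.07 from edgeR), and Runx3, which favors CD8 and rose by 0.65 (adjusted p = 0.00351 from edgeR). The 2 genes called lower were Myb (-1.07), which is also high in blood progenitors, and Patz1 (-0.47). With the 26-week libraries only, 3 of the 14 were called higher.

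The genes that accompany CD4 were compared with those that accompany CD8. Of 10 CD4 T cell associated genes, 7 were called higher and none lower in NOD.B10, and the median was 0.82 on the log2 scale. Those called were Cd40lg, Foxp3, Icos, Ikzf2, Izumo1r, Tnfrsf4 and Tnfsf8, while Zbtb7b, Ctla4 and Il2ra did not pass. What these genes say of the number of CD4 T cells was not tested. None was lower at an unadjusted p under 0.05 in edgeR (0 of 10) or by DESeq2. Cd40lg, the helper ligand for B cells, rose from 1.78 ± 0.631 CPM (SD, n = 3) in BL/10 to 6.94 ± 1.46 CPM (SD, n = 3) in NOD.B10, and Foxp3, the factor of regulatory T cells, from 5.59 ± 0.855 CPM (SD, n = 3) to 13.5 ± 2.85 CPM (SD, n = 3), log2 fold changes of 1.95 and 1.27. Of 10 CD8 T cell associated genes, 3 were called higher (Gzmk, Runx3 and Itgae) and 2 lower (Ccl5 and Gzmm), with a median of 0.29. At an unadjusted p under 0.05 in edgeR 4 were higher and 2 lower, and DESeq2 also called 4 higher and 2 lower. Dapl1 had a log2 fold change of 0.89 without overlap of the strains (adjusted p = 0.0607 from edgeR and 0.0179 from DESeq2). Gzmk, a granzyme, had a log2 fold change of 1.76, and Gzmm, another granzyme that NK cells also make, of -1.06. Most genes of the CD8 list are also used by NK cells. Of 8 NK cell markers, Ncr1 was called higher and Fcer1g and Tyrobp lower, the latter pair being adaptors shared with myeloid cells. At an unadjusted p under 0.05 in edgeR 2 of the 8 were higher and 4 lower, and DESeq2 called 1 higher and 3 lower. The list's summed level was between 455 and 590 CPM in NOD.B10 and between 640 and 775 CPM in BL/10. Most of it came from Tyrobp (mean 291 CPM in NOD.B10 and 413 CPM in BL/10) and Fcer1g (83.6 and 153 CPM). The sum thus mainly reads these shared adaptors. The part of NK cells in the CD8 list and in Cd247 was not tested. The difference between the CD4 and CD8 lists was not tested.

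**Figure D4:**
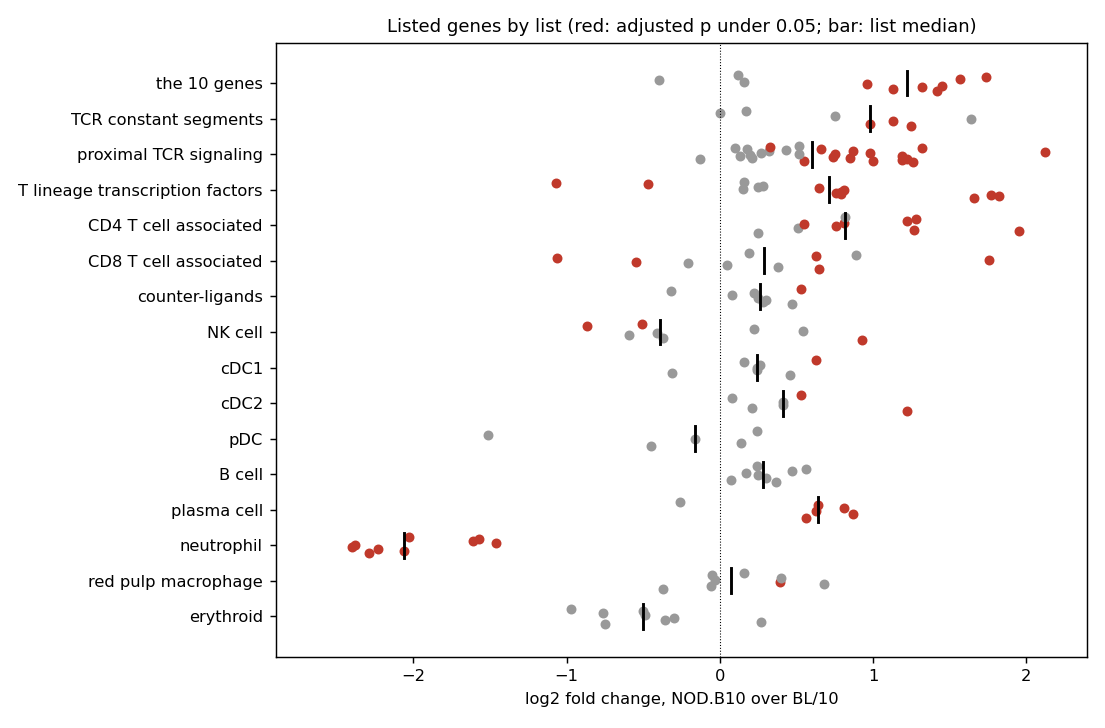
Log2 fold change in NOD.B10 over BL/10 for the 10 genes and for each listed gene, by list, red where the adjusted p in edgeR was under 0.05 and grey where not, with a bar at the list median. The 10 genes and the receptor, signaling, T lineage transcription factor, CD4 associated and plasma cell lists have medians of 0.60 or more. The CD8 associated list has 0.29 and the neutrophil list -2.06. The hemoglobin gene Hba-a2 (-8.93) and the pancreas list lie off the axis and are not drawn.

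Ligands of these receptors were read as well. Of 8 counter-ligand genes, 1 was called higher, beside 9.11% of all tested genes, and 7 had a log2 fold change above 0. The gene called was Il16, a soluble ligand of CD4 (log2 fold change 0.53, adjusted p = 0.0434 from edgeR). Its call was lost in the 26-week libraries (0.29) and without NOD.B10 replicate 1 or 3 or BL/10 replicate 2 or 3 (0.42 at the lowest). The MHC class II genes H2-Aa and H2-Ab1, bound by CD4, had log2 fold changes of 0.47 and 0.28, the class I genes H2-K1 and H2-D1, bound by CD8, 0.25 and 0.08, and B2m, the class I light chain, 0.30, with adjusted p from 0.18 to 0.75 in edgeR. H2-Aa had a 95% interval of -0.05 to 1.00, and without BL/10 replicate 1 it was called higher as well (0.73, edgeR adjusted p = 0.0224), whereas its value in the 26-week libraries was 0.05. Cd48, the ligand of CD2, had 0.22, and Alcam, the ligand of CD6, -0.32 (adjusted p = 0.486 and 0.176 from edgeR). Without BL/10 replicate 2, Alcam was called lower (-0.48, edgeR adjusted p = 0.031).

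Other cells that carry CD4 and the remaining cells of the spleen were read from further marker lists. For conventional dendritic cells of type 2 (cDC2), which can carry CD4, 2 of 6 markers were called higher (Clec4a4 and Dtx1, the second also high in marginal zone B cells). The list's summed level was 680, 558 and 601 CPM in NOD.B10 and 476, 459 and 541 CPM in BL/10. Most of it came from Sirpa (mean 351 CPM in NOD.B10 and 304 CPM in BL/10, with overlap) and Dtx1 (198 and 137 CPM). The sum thus mainly reads these 2 genes. The part of cDC2 in the level of Cd4 was not tested. Plasmacytoid dendritic cell markers were called in 0 of 5 genes by edgeR. At an unadjusted p under 0.05 in edgeR 1 was higher and 1 lower, and DESeq2 called 1 lower. Of 6 plasma cell genes, 5 were called higher, but 3 without NOD.B10 replicate 3 or BL/10 replicate 3, 2 at an adjusted p under 0.01 and 0 in the 26-week libraries. Of 8 red pulp macrophage genes, 1 was called higher by edgeR, which most alternatives lost, while DESeq2 called 3 higher and 1 lower. Of 9 erythroid genes, 1 was called lower (Hba-a2, which has a near-identical copy and is uncertain), and 4 without BL/10 replicate 1. All 9 neutrophil genes were called lower in NOD.B10, with a summed level of 2150 to 2485 CPM against 6228 to 12887 CPM in BL/10. All 11 pancreas acinar genes tested were also called lower, at the levels given above, but edgeR called 0 without NOD.B10 replicate 1 or 3 and at an adjusted p under 0.01, and 1 without NOD.B10 replicate 2, and limma-voom with quality weights called 1. A smaller share of counts from other cells can raise the CPM of T cell genes. In a fit without immunoglobulin, hemoglobin and pancreas genes, 7 of the 10 genes were called as well. No fit left out the neutrophil genes, and the part of other cells in the levels was not tested. A ratio between 2 genes in a library does not depend on the library total, but the part of other cells that carry one of the 2 genes was not tested either.

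Genes beside or between the 10 in the genome were examined for position. Of the 36 tested genes nearest to the 6 loci, 3 on each side, 3 were called higher and 2 lower in edgeR, near the shares over all genes of 9.11% and 8.22%, and their median log2 fold change was 0.08. At the CD3 locus, Mpzl3 was called higher (log2 fold change 0.67, adjusted p = 0.0343 from edgeR) and the others, Ube4a, Atp5l, Kmt2a, Mpzl2 and Jaml, were between -0.09 and 0.73 and did not pass. Beside Cd4, Lag3, which encodes another receptor for MHC class II, had 0.25 (adjusted p = 0.317 from edgeR) and Cdca3, a cell division gene, was called lower with -1.70. Beside or between Cd8a and Cd8b1 none of 6 was called by edgeR. At an unadjusted p under 0.05 in edgeR 1 of the 6 was lower (Gm1070), DESeq2 called 0 and limma-voom 1. The other genes called were Gm37469, which lies inside the Cd247 gene, and A430093F15Rik, which lies between Cd5 and Cd6, both higher, and Igsf3 near Cd2, lower.

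The differences of the 10 genes were recomputed under the alternative settings. Cd3e, Cd3d, Cd3g, Cd247, Cd5 and Cd6 had an adjusted p under 0.05 in all 15 alternative fits, with log2 fold changes from 0.94, for Cd3d in the 26-week libraries, to 1.89, for Cd6 without BL/10 replicate 1. Cd4 passed in 14 of the 15. Cd8a passed in none and Cd8b1 and Cd2 in 1 each, as given above. The share of all tested genes called in either direction was between 6.19% and 26.3% over these fits.

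**Figure D5:**
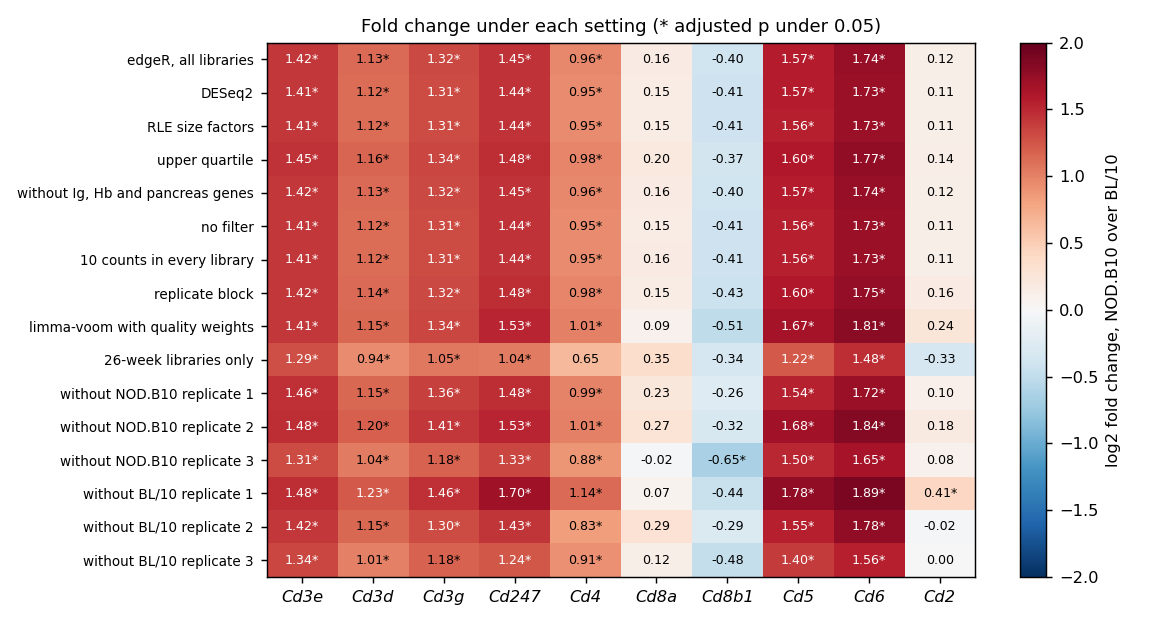
Log2 fold change in NOD.B10 over BL/10 for each gene (columns) in the edgeR comparison of all libraries (top) and in each of 15 alternative fits (rows), with an asterisk where the adjusted p was under 0.05. The CD3 genes, Cd5 and Cd6 are past the threshold in every row, Cd4 in all but the 26-week libraries, and Cd8a, Cd8b1 and Cd2 stay between -0.65 and 0.41.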

How the data were processed

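The authors sequenced RNA from whole spleens (3 females of each strain) on an Illumina HiSeq 2500 (TruSeq, 50 cycles, single-end). What they deposited is a table of raw counts by gene, not normalized. The paper names Tophat2 and mm10 for mapping, whereas the submitters' processing notes name HISAT2 version 2.0.5 and GRCm38. By the file header, reads were counted on exons with featureCounts version 1.5.1 and Ensembl annotation 84, without strand and without reads that overlap several genes, so counts of overlapping or near-identical genes are uncertain. Reads of NOD alleles that map poorly to the reference would be lost, which was not tested. The table also gives exon lengths, used for levels per kilobase. Symbols from GENCODE M21 matched 47224 of 47729 identifiers.

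Libraries were assigned by description and column name. For BL/10 replicate 3 the column name and the description differ in the last part, and the library number and strain were matched. Replicates are separate mice. The chi-square per degree of freedom between replicates was at least 13.6, so all 6 libraries were kept as separate replicates.

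Counts were kept by filterByExpr (15330 genes), TMM-normalized and fitted with edgeR version 4.0.16 in R version 4.3.3, with limma version 3.58.1 and DESeq2 version 1.42.0 for alternatives. For edgeR, SE is the log2 fold change divided by the root of F. Ratios were tested by exact permutation over all 20 relabelings with scipy version 1.17.1. The fits were tested on simulated data. The named genes were the 10 genes, the genes of 16 lists that passed or bear on one of the 10, the 3 nearest tested genes on each side, and the 8 genes of most similar pattern. The genes and the lists were chosen with earlier results of these data known. Replicate numbers come from the titles and do not mark shared animals.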

Additional observations from a re-analysis of the deposited data

How the results depend on the processing

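Of the 10 genes, between 6 and 8 were called over all alternatives, against 7. The calls that changed were few. Cd4 had a log2 fold change of 0.65 in the 26-week libraries only and did not pass. This fit has 1 BL/10 library, whose spread is assumed to be that of NOD.B10. With each replicate left out, the log2 fold change ranged from -0.02 to 0.29 for Cd8a, changing sign without NOD.B10 replicate 3, from -0.65 to -0.26 for Cd8b1, which passed without NOD.B10 replicate 3, and from -0.02 to 0.41 for Cd2, which passed without BL/10 replicate 1 and was below 0 without BL/10 replicate 2 (-0.02) or 3 (-0.002). Cd2 was also below 0 in the 26-week libraries (-0.33). The log2 difference of the Cd247 to Cd3e ratio ranged from -0.09 to 0.23 with a replicate left out, changing sign without BL/10 replicate 3. The other ratios kept their sign. The cause of these changes was not tested.

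Calls in the lists moved more. In the 26-week libraries, genes called higher were 1 T cell receptor constant segment, 7 signaling genes, 3 transcription factors, 2 CD4 associated genes and 1 CD8 associated gene. At an adjusted p under 0.01 they were 9 signaling genes, 4 transcription factors, 2 CD4 associated genes and 1 CD8 associated gene. With each replicate left out, they ranged from 5 to 9 transcription factors (5 without NOD.B10 replicate 1 or 3 or BL/10 replicate 2 or 3), 3 to 8 CD4 associated genes (4 without NOD.B10 replicate 2 or BL/10 replicate 2 or 3, and 3 without NOD.B10 replicate 3) and 1 to 3 CD8 associated genes (1 without NOD.B10 replicate 1 or BL/10 replicate 2). The NK cell, cDC1 and cDC2 lists, with at most 2 genes called each way, had between 0 and 3 over the alternatives, and without BL/10 replicate 1 the NK cell list had 1 lower in place of 2. Over all genes, 2656 were called, against 1001 in the 26-week libraries, 1035 at an adjusted p under 0.01, 1269, 1395, 1580 and 1744 without NOD.B10 replicate 1 or 3 and BL/10 replicate 2 or 3, and 4107 without BL/10 replicate 1. Of the 36 neighbouring genes 3 were higher and 2 lower, and of 60 with 5 on each side, 7 and 4.

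Replicate numbers did not pair the libraries, since same-numbered libraries had correlations of deviations of 0.0316, 0.172 and -0.0837 over genes. With the replicate number as a block, the log2 fold change was 1.42 for Cd3e, 0.98 for Cd4, 0.15 for Cd8a and 0.16 for Cd2, 7 of the 10 genes were called, and 2889 genes were called in all. The median of all genes moved by less than 0.1 under any scaling.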
